A study of Bos taurus with 6 samples.

Results

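The GIMAP genes encode GTPases of immunity-associated proteins. All rows of the mRNA count table whose symbol starts with GIMAP were taken, which gave 6 of the 25444 genes: GIMAP1, GIMAP4, GIMAP5, GIMAP6, GIMAP7 and GIMAP8. The family was selected on these same counts, since its low values in the steers library were known when it was proposed. Intramuscular fat (IMF) dissected from the sternomandibularis muscle was compared between steers and bulls of the Chinese Qinchuan breed. Both groups were weaned at 3 months, received the same diets and were slaughtered at 24 months of age, and the steers had been castrated surgically at 6 months. Each group had 1 mRNA library made from pooled RNA, from 6 animals by the series' design text and from 3 by the sample labels, and 2 small RNA libraries, each from 3 animals by the design text and from 1 by the labels. Only males of 1 breed were studied, and the paper describes all of them as offspring of a single sire.

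GIMAP proteins share a domain that binds guanine nucleotides and are related in structure to septins. They are best known from lymphocytes, where they affect the survival and the number of T cells, and endothelial cells can express some of them too. GIMAP1 and GIMAP5 are anchored in membranes by a hydrophobic tail, whereas GIMAP4, GIMAP6, GIMAP7 and GIMAP8 lack this anchor. In mammals the family lies in a single gene cluster.

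The mRNA libraries held 12677375 counts in steers and 9868415 in bulls. They were brought to one scale by median-of-ratios size factors, 1.04 for steers and 0.959 for bulls. Ratios below are log2 ratios of scaled counts, steers over bulls, with 95% Clopper-Pearson intervals. The intervals include only counting error, as several reads may stem from a single molecule. A single pooled library per group has no replicate check, so the values are a description with no test. As a background, 11.5% of the 14540 genes with at least 10 counts over both libraries were more than 2-fold lower in steers, 6.73% were more than 2-fold higher, 1.89% were more than 8-fold lower and 0.928% more than 8-fold higher. A count of 0 was set to a floor of 3 counts for this purpose. Genes more than 2-fold higher made up 36.8% of all genes past 2-fold, and 24.1% when the libraries were scaled by their total counts.

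All 6 GIMAP genes had fewer counts in the steers library than in the bulls library. Their counts summed to 61 in the steers library and to 924 in the bulls library, or 4.81 and 93.6 CPM (counts per 1000000 counts of the library). The log2 ratio of the sum was -4.04 (interval -4.44 to -3.67), which is 16.5-fold lower in steers. The ratio of each member was beyond 8-fold as a point value, but the intervals of GIMAP1 and GIMAP8 reached down to 4.65-fold and 7.07-fold, and with a prior of 5 counts GIMAP1 was at -2.49. These ratios chose the family, so the background shares are given beside them and nothing is read from the comparison.

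Of the membrane-anchored members, GIMAP5, whose loss in rats leads to a shortage of T cells, was counted 3 times in steers against 69 times in bulls. Its log2 ratio was -4.65 (interval -6.96 to -3.04). GIMAP1, which mouse lymphocytes need to persist, had 1 count against 26, with a log2 ratio of -4.82 (interval -10.18 to -2.22). These members had the fewest counts of the family in both libraries and therefore the widest intervals, and for GIMAP1 the fold ranged from 4.65 to 1160 within the interval.

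Among the members without a membrane anchor, GIMAP4, a protein linked to the death of T cells, had 17 counts in steers against 295. The log2 ratio of GIMAP4 was -4.24 (interval -5.04 to -3.54). GIMAP6, which has been linked to autophagy, had 9 and 163 counts and a log2 ratio of -4.30 (interval -5.46 to -3.34). Both were lower in steers to a similar degree, with intervals that lay beyond 8-fold over their whole length. GIMAP7, a member that can act on the GTPase activity of other GIMAP proteins, had 26 counts in steers against 292. Its ratio, -3.61 (interval -4.25 to -3.03), was the closest to 0 of the 6. GIMAP8, which carries several GTPase domains in one protein, had 5 and 79 counts and a log2 ratio of -4.10 (interval -5.77 to -2.82).

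**Figure D1:**
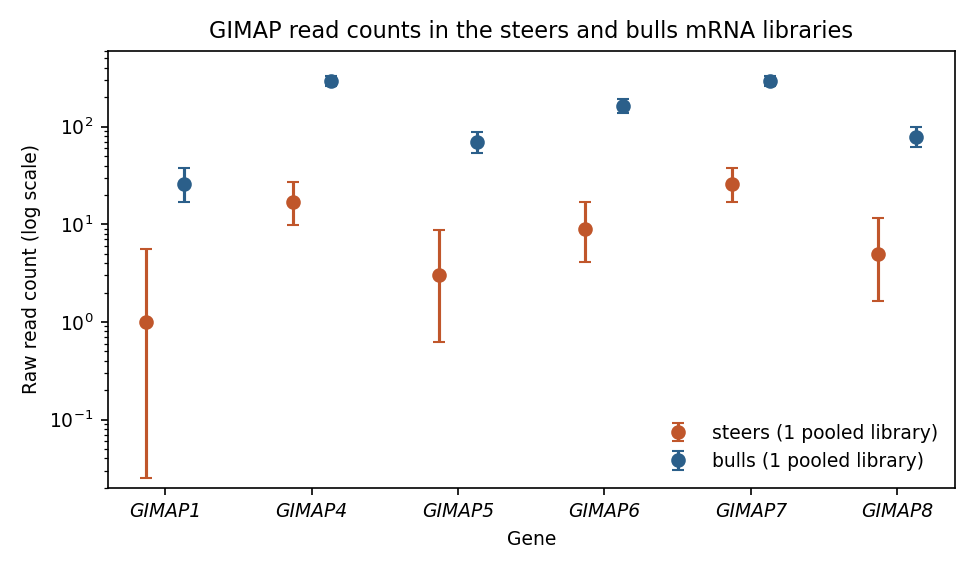
Raw read counts on a log axis for the 6 GIMAP genes in the steers and the bulls mRNA library, 1 pooled library each, with exact 95% Poisson intervals for counting error. The counts lie between 1 and 26 in steers and between 26 and 295 in bulls, and no interval of a steers count reaches that of the bulls count of the same gene.

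The log2 ratios of the members lay between -4.82 and -3.61 with a median of -4.27, or from 12.2-fold to 28.3-fold lower in steers. The intervals overlapped in all 15 pairs of members, and with so few counts in steers they were too wide to show differences of this size. GIMAP4 and GIMAP7 held most of the family's counts in both libraries. GIMAP4 made up 27.9% of the GIMAP counts in steers (95% Clopper-Pearson interval 17.1 to 40.8) and 31.9% in bulls (28.9 to 35.04). The share of GIMAP7 was 42.6% in steers (30.04 to 55.9) and 31.6% in bulls (28.6 to 34.7). The intervals of both shares overlapped between the libraries, so a change in the make-up of the family was not detectable at this depth. Without GIMAP7 the ratio of the summed counts was -4.30, and with any other member left out it lay between -4.04 and -3.96. Transcript lengths were not used here, so levels of different members cannot be ranked.

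All 6 members had at least 10 counts over both libraries. In steers, however, GIMAP1, GIMAP5, GIMAP6 and GIMAP8 had fewer than 10, and these reached the minimum only through the bulls library. With counts of 0 set to the floor of 3, 35 of the 14540 genes had a lower ratio than GIMAP1, and 153, or 1.05%, had a lower ratio than GIMAP7. The floor can place a gene without counts in steers above GIMAP1, which had 1, so these ranks may miss more extreme genes. The ratios chose the family, and nothing is read from the ranks.

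Next, the order of genes around the family was taken from RefSeq (assembly ARS-UCD2.0), which is a newer assembly than the one used for the counts, so no positions are given. From GIMAP8 to GIMAP5 the table lists 13 protein-coding genes in a row, of which 6 carry a GIMAP symbol. GIMAP7 is not a current symbol there and is an older name of 4 of the 13 genes. In the annotation used by the study, the GIMAP7 row is paired with LOC510988, which is one of those 4. The same annotation pairs the GIMAP1 row with LOC512867, which RefSeq lists inside the cluster as a gene apart from GIMAP1. Reads of near-identical copies could have been split or moved between these genes, and the GIMAP1 and GIMAP7 values carry that uncertainty. GIMAP2, which RefSeq lists between GIMAP1 and GIMAP5, had no row under that symbol in the counts and so was not analysed.

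An unnamed gene inside the cluster, LOC511617, had 1 count in the steers library against 47, for a log2 ratio of -5.68 (interval -11.01 to -3.13). LOC530077, the gene after GIMAP5, had 6 and 94 counts and a ratio of -4.09 (interval -5.57 to -2.92). Both were thus as low in steers as the GIMAP genes beside them, although the table used here does not say what they encode. Farther out the ratios were nearer to 0. On the GIMAP8 side, the nearest 5 genes with a row in the counts, ZNF775, REPIN1, LRRC61, ATP6V0E2 and ZNF862, had log2 ratios between -0.65 and 0.82. ZNF775 and REPIN1, both zinc finger genes next to the cluster, were at 0.51 (interval -0.35 to 1.40) and 0.19 (interval -0.10 to 0.49). The interval of ZNF775 thus reached past 2-fold higher. ZNF775 had 31 and 20 counts in steers and bulls, and REPIN1 had 218 and 175.

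On the GIMAP5 side, beyond LOC530077, the membrane protein genes TMEM176B and TMEM176A were at -0.97 (interval -1.38 to -0.56) and -0.93 (interval -1.50 to -0.38). AOC1, a diamine oxidase listed under its older symbol, had 512 and 1372 counts and was at -1.54 (interval -1.69 to -1.40). The potassium channel gene KCNH2 had 21 counts in each library and was at -0.12. Of the 10 flanking genes, 2 were more than 2-fold lower in steers, LOC530077 and AOC1. None of the other 8 was past 2-fold in either direction.

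**Figure D2:**
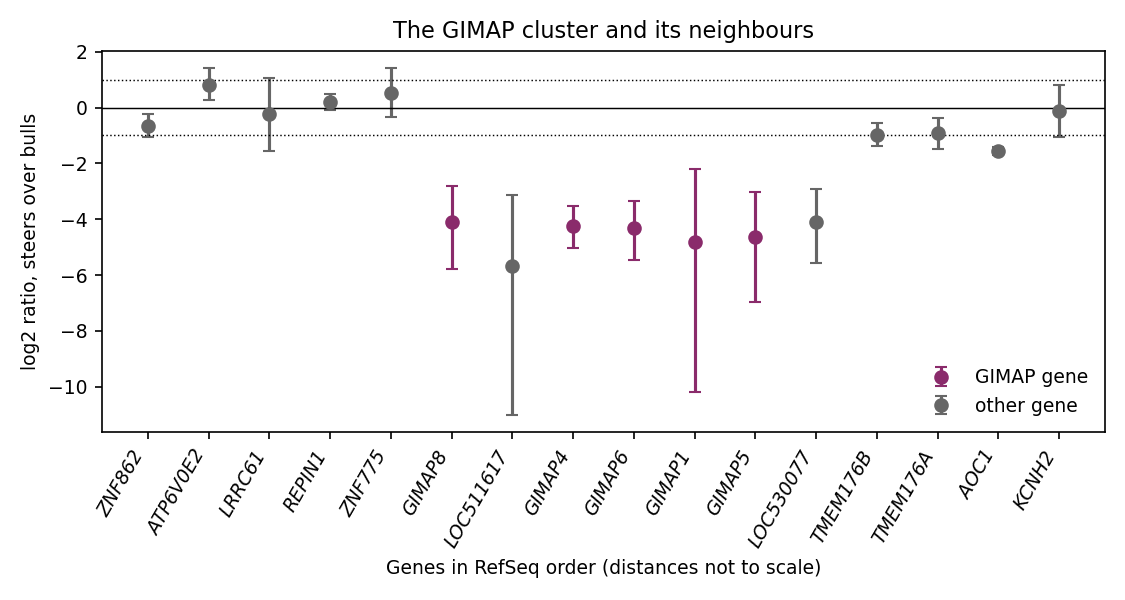
Log2 ratios, steers over bulls, with 95% Clopper-Pearson intervals for the genes of the GIMAP cluster and 5 flanking genes on each side that had a row in the counts, in RefSeq order and not to scale, with GIMAP1 placed by its symbol and GIMAP7 left out. Dotted lines mark 2-fold. The 5 GIMAP genes shown, LOC511617 and LOC530077 lie between -5.68 and -4.09, and the other flanking genes between -1.54 and 0.82.

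Marker genes of blood cells moved with the GIMAP genes, and their part in the GIMAP ratios was not tested. In these bulk libraries, fewer cells of a type and less RNA per cell cannot be told apart. The lists below were written from general knowledge, with earlier results of these data known. Of 18 T cell genes listed, 17 were in the table and 16 had at least 10 counts. Of these 16 genes, 8 had fewer than 10 counts in steers and reached the minimum only through bulls, where they were higher. The count that follows is therefore a description. More than 2-fold lower in steers were 15 of the 16, and none was more than 2-fold higher, beside 11.5% lower and 6.73% higher among all genes. Those all-gene shares are the background for each list that follows. The median log2 ratio of the T cell list was -3.04, against 0.01 for all genes, and its summed counts were 232 in steers and 1406 in bulls. CD3E, a chain of the T cell receptor complex, had 35 and 253 counts and was at -2.98. LCK, the kinase that starts signalling from that receptor, had 14 and 137 counts and was at -3.41. CD8B had 18 and 142 counts and was at -3.10, and CD3D had 25 and 111 counts and was at -2.27. CD3G had 34 counts in bulls and 0 in steers. With its steers count set to the floor of 3 it was 12.3-fold lower, and the upper end of its interval was a log2 ratio of -3.25. The exception among the 16 was CD247, a signalling chain of the same receptor, with 53 and 67 counts and a log2 ratio of -0.46. CD3G and CD247 were picked after their values were seen.

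For cytotoxic and NK cells, 13 of 14 listed genes were in the table and 8 reached 10 counts, all of them more than 2-fold lower in steers. However, 6 of the 8 had fewer than 10 counts in steers and reached the minimum only through bulls. The median of these 8 was -3.69 with genes at 0 set to the floor. NKG7, a granule membrane protein, had 44 and 338 counts and was at -3.06. The pore-forming protein PRF1 had 7 and 208 counts and was at -5.02. CTSW, a protease of cytotoxic cells, had 18 and 181 counts and was at -3.45. The chemokine gene CCL5 was at -5.53. Of 12 B cell genes listed, 11 were in the table, 7 reached 10 counts (3 of them only through bulls) and 5 were more than 2-fold lower, with a median of -1.93. CD37, a membrane protein that other leukocytes express too, held most of the counts of this list, with 165 and 710, and was at -2.23. MS4A1 and CD79B, which define B cells and were picked after their values were seen, were at 0 in both libraries.

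Of 15 pan-leukocyte genes listed, 12 were in the table and all 12 were more than 2-fold lower in steers, with a median of -2.28 and a range of -3.95 to -1.32. PTPRC, which encodes the leukocyte surface protein CD45 and was picked after its values were seen, had 107 and 780 counts and was at -2.99. Myeloid genes were less far from 0, with 9 of the 11 in the table (13 listed) more than 2-fold lower and a median of -1.70. CSF1R, the receptor for a macrophage growth factor, had 7057 and 12309 counts and was at -0.92, and the scavenger receptor CD163 was at -0.64. The complement genes C1QA and C1QB, which macrophages express, were at -1.34 and -1.62.

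Genes of lymphocyte survival and trafficking, where GIMAP proteins are mostly discussed, were uneven. Of 14 such genes, 7 were more than 2-fold lower, 0 were more than 2-fold higher, and the median was -0.88. Here 5 of the 14 reached 10 counts only through bulls. The 4 with the most counts, FOXO1, S1PR1, KLF2 and FOXP1, lay between -0.22 and 0.62, and all of them are also used by other cell types. In contrast, the survival receptor IL7R had 8 and 56 counts and was at -2.93, and the homing receptor CCR7 had 2 and 31 counts and was at -4.08 (interval -7.18 to -2.10). IL7R and CCR7 were picked after their values were seen.

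Endothelial genes stayed within 2-fold. All 13 endothelial genes reached 10 counts, 0 were more than 2-fold lower and 0 were more than 2-fold higher, and their log2 ratios lay between -0.66 and 0.62. PECAM1, an adhesion molecule of endothelial junctions, had 4541 and 3723 counts in steers and bulls. VWF, the clotting factor carrier, had 3499 and 3664. The summed endothelial counts had a log2 ratio of -0.03 (interval -0.07 to 0.01). The tissue itself was checked with adipocyte genes, and CIDEC, FABP4, ADIPOQ, PLIN1 and LEP, which define fat cells and of which PLIN1 and LEP were picked after their values were seen, each had at least 1153 counts in both libraries. Of 9 adipocyte genes with 10 counts, 1 was more than 2-fold lower and 2 were more than 2-fold higher. Muscle transcripts were abundant too, ACTA1 with 13852 and 19910 counts. Of 11 muscle genes, 4 were more than 2-fold lower and 1 was more than 2-fold higher, beside 11.5% and 6.73% of all genes. Those lower were MYL2 (-2.27), MYH7 (-2.23), TNNT1 (-2.01) and DES (-1.26), and MYH1 was higher at 1.15. All of these but DES were picked after their values were seen. Why muscle genes differed between the libraries was not tested.

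**Figure D3:**
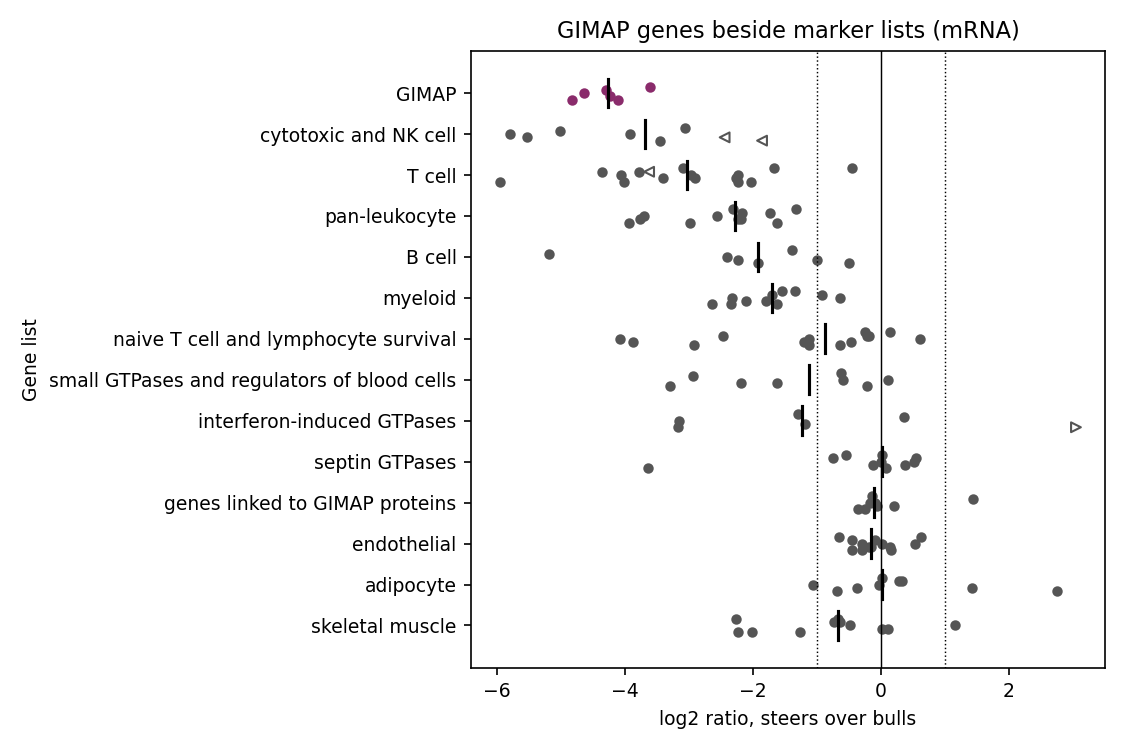
Log2 ratios, steers over bulls, of the GIMAP genes and of the genes of 13 lists with at least 10 counts over both mRNA libraries, 1 dot per gene, with the median as a vertical bar and dotted lines at 2-fold. Open triangles are genes with 0 counts in 1 library, drawn at the value given by a floor of 3 counts. The GIMAP median is -4.27, that of the cytotoxic list -3.69, that of the T cell list -3.04 and that of the endothelial list -0.16.

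GIMAP counts can also be set beside those of a list within each library, which does not depend on scaling between libraries. For every 100 counts of the T cell list there were 26.3 GIMAP counts in steers and 65.7 in bulls, and without CD247, left out after its counts were seen, there were 34.1 and 69.0. Per 100 counts of the cytotoxic list there were 78.2 and 91.4 GIMAP counts, and per 100 counts of the endothelial list 0.525 and 8.48. As the low GIMAP counts in steers chose the family, a lower value in steers was favoured by that choice, and these values are a description from which nothing is read.

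Other GTPases were compared with the family, beside the all-gene shares of 11.5% lower and 6.73% higher. The septins, its structural relatives, are written as calendar dates in the deposited table and were matched through that form. Of 13 septins listed, 12 were in the table and 10 reached 10 counts, with a median log2 ratio of 0.01. SEPT2 had 6946 and 4907 counts and was at 0.38, and SEPT9, with 1638 and 1502 counts, was at 0.00. Only SEPT1, picked after its values were seen, was more than 2-fold lower, with 6 and 69 counts and a ratio of -3.65 (interval -5.14 to -2.45). Of 10 genes listed as interferon-induced GTPases, 7 were in the table and 6 reached 10 counts. Whether interferon induces each of them was not tested. More than 2-fold lower were 4 of the 6, and 1 was more than 2-fold higher. The higher gene was IRGC, picked after its values were seen, with a steers count of 27. Its ratio of 3.05 rests on a bulls count of 0 set to the floor of 3. IRGC thus passed the minimum only through the steers library. GBP4 had 11 and 91 counts and was at -3.17, GBP7 had 22 and 181 counts and was at -3.16, and GBP5 was at -1.18, whereas MX1 had 325 and 232 counts and was at 0.36. Of 9 small GTPases and regulators of blood cells listed, 8 were in the table and 4 were more than 2-fold lower, RAC2 among them at -2.19 (192 and 804 counts), and RAP1B was at 0.11.

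A list of 8 genes linked to GIMAP proteins holds regulators of cell death of the BCL2 family, GABARAPL2 of autophagy and the kinase gene GSK3B. None was more than 2-fold lower in steers, 1 was more than 2-fold higher, and the median was -0.11. BCL2L1, which protects cells from death, had 2583 and 2053 counts and was at 0.21. MCL1, with the same role, had 1657 and 1949 counts and was at -0.36. GABARAPL2 and GSK3B were at -0.06 and -0.09. The gene past 2-fold was BAX, which promotes cell death, with 53 and 18 counts and a ratio of 1.44 (interval 0.64 to 2.30), picked after its values were seen.

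The genes most like the family were those whose log2 ratio was closest to that of the summed GIMAP counts, among 10460 other genes with at least 50 counts in bulls. With only 2 libraries this likeness is a single ratio. The nearest 8 were PLAC8, PTPRO, ZAP70, IRF4, P2RY6, CD2, UBD and LOC530077, all within 0.05 of the family's ratio. Their counting intervals were far wider than this distance, from -5.03 to -3.12 for UBD and from -5.95 to -2.60 for PTPRO. Which genes are nearest is therefore not resolved at this depth. ZAP70, a kinase of T cell receptor signalling, had 6 and 92 counts, and CD2, an adhesion molecule of T cells, had 6 and 89. IRF4, a transcription factor of activated lymphocytes, had 10 and 149 counts, and PLAC8, a gene expressed in leukocytes, had 9 and 137. UBD, a ubiquitin-like modifier induced by cytokines, had 11 and 162 counts. The phosphatase gene PTPRO had 4 and 60 counts and the nucleotide receptor gene P2RY6 had 5 and 77. Among the 10460 genes, 48 had ratios within the range of the 6 GIMAP genes and 47 had a ratio below that of the summed family.

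The 4 small RNA libraries gave a readout of blood cells that was not used to choose the family. The paper describes the same set of steers and bulls for both kinds of library, so they are not a sample of other animals. They held between 6556511 and 10452582 counts. A list of miRNAs known from blood cells was compared in a single fit of the 1073 sequences that passed edgeR's filter on low counts, with TMM scaling, edgeR's quasi-likelihood test and Benjamini-Hochberg adjustment over all of them. At an adjusted p under 0.05, 7.08% of the sequences were lower and 7.08% were higher in steers, 76 each, and with upper-quartile scaling 52 were lower and 101 were higher. The mature sequences of the miRNAs on which the comparison turns are shown 5′ to 3′ as the study lists them, with T for U and the seed (bases 2 to 8) in capitals. MiR-150 is typical of mature lymphocytes, miR-142-5p of all blood cells and miR-223 of myeloid cells, and no seed is shared among them.
bta-miR-150: tCTCCCAAcccttgtaccagtgt
bta-miR-142-5p: cATAAAGTagaaagcactac
bta-miR-223: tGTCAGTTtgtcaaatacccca

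MiR-150 was at 31.1 and 23.6 TMM-normalized CPM in the steers libraries and at 68.1 and 52.0 in the bulls libraries. The groups did not overlap, but edgeR did not call its log2 fold change of -1.14 (SE 0.46, adjusted p = 0.0824). Each SE given with an edgeR result is the absolute log2 fold change over the square root of edgeR's F statistic. It is thus no measure of uncertainty apart from the p-value. The study, which used the EBseq algorithm on these libraries, did report miR-150 as differentially expressed and lower in steers. The call thus differs between the methods, and the place of miR-150 on the list is not independent of these libraries. MiR-142-5p was at 572 and 407 CPM in steers and at 2044 and 1010 in bulls. In edgeR's test it was called lower in steers at -1.64 on the log2 scale (SE 0.50), and the adjusted p was 0.0147. MiR-142-5p was no longer called by edgeR without the first library of steers (-1.87, adjusted p = 0.368), without the second (-1.39, adjusted p = 0.748) or without the first library of bulls (-0.85, adjusted p = 0.275). MiR-223 was at 5.26 and 2.69 CPM in steers and at 29.5 and 30.1 in bulls. EdgeR called it lower too, at -2.91 on the log2 scale (SE 0.56), where the adjusted p was 1.51e-05. Without the second library of steers it was -2.46 (adjusted p = 0.111 from edgeR).

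The other 3 miRNAs of the list were not called. MiR-142-3p was at -0.70 (SE 0.48), miR-155, of activated lymphocytes and macrophages, at -0.47 (SE 0.49), and miR-342, of lymphocytes, at -0.49 (SE 0.49), and edgeR gave them adjusted p values of 0.332 to 0.560. In the count table, by contrast, the log2 ratio of the summed GIMAP counts was -4.04. The libraries, the animals per pool and the scaling of these measures differ, and the difference between them was not tested.

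**Figure D4:**
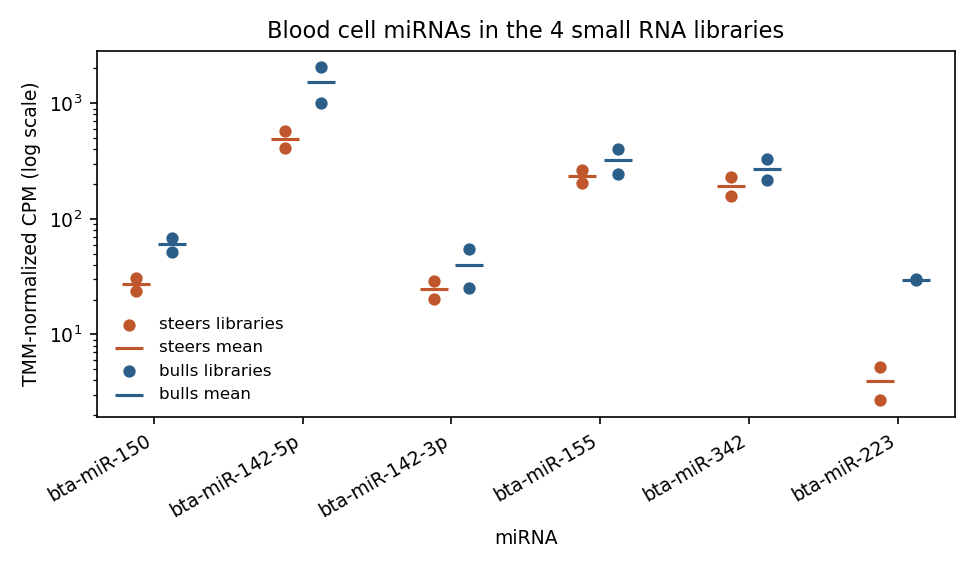
TMM-normalized CPM of 6 blood cell miRNAs on a log axis in the 2 steers and 2 bulls small RNA libraries, 1 dot per library with a horizontal bar at the group mean. MiR-223 lies between 2.69 and 5.26 CPM in steers and between 29.5 and 30.1 in bulls, and the groups overlap for miR-142-3p, miR-155 and miR-342.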

How the data were processed

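The series holds 1 pooled mRNA library and 2 small RNA libraries of IMF for steers and the same number for bulls, and the labels' treatment field gave the groups. The mRNA counts, as deposited by the authors, are raw counts per gene made from Ion Proton reads after MapSplice alignment to a bovine assembly. Which program counted the reads, and whether it used strand, is not given in the sources used here. The small RNA counts deposited by the authors are raw counts per mature sequence, for which BWA placed the reads on miRBase sequences and a bovine assembly. The submitters' processing notes name a human build, GRCh37.p13, with no role.

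The GIMAP rows, the gene lists and the tests were chosen with earlier results of these data known. Counts were scaled and compared with numpy 2.4.6 and scipy 1.17.1, and small RNA was fitted with edgeR 4.0.16 under R 4.3.3, with DESeq2 1.42.0 and limma 3.58.1 as alternatives. The labels and the design text differ on the animals behind each small RNA library, and neither says whether libraries of a group share animals. The p-values therefore rest on the spread between these libraries only. In the main fit, edgeR took that spread largely from all sequences tested together, so it is not each miRNA's own spread. Both scripts were tested on simulated data. The mRNA simulation held counting error only, in genes with more counts than most GIMAP genes. It therefore says nothing on variation between animals or libraries. The genes named were the GIMAP rows, up to 4 genes per list with the most counts, up to 5 neighbours on each side, the 8 genes with the closest ratio, the listed miRNAs, and genes said to be picked after their values were seen. List genes were matched by symbol, by older RefSeq symbol or, for septins, by date. Alternatives were other scalings, other minimum counts, a prior of 5 counts, other tools and filters for miRNAs, a replicate block and each small RNA library left out in turn. One gene of the lymphocyte survival list is not reported here by name.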

Additional observations from a re-analysis of the deposited data

How the results depend on the processing

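The direction of all 6 GIMAP genes and their place beyond 2-fold held under scaling by total counts, TMM factors, upper-quartile scaling and a prior of 5 counts, and the log2 ratio of the summed counts lay between -4.28 and -4.03 over the scalings. With the prior, GIMAP1 moved to -2.49 and 5 of the 6 genes were beyond 8-fold. Scaling by total counts shifted all ratios by -0.24. With a minimum of 1 count, 2603 genes were more than 2-fold lower and 1697 higher, and 2 adipocyte genes were lower. With at least 50 counts these numbers were 984 and 465, and the genes more than 2-fold lower were 3 for lymphocyte survival, 5 for cytotoxic and 3 for B cells, since fewer genes were tested. Of the listed miRNAs, edgeR called 2 lower with TMM, 0 with total counts (miR-142-5p and miR-223 both had an adjusted p of 0.0693 in edgeR, and all 6 an unadjusted p under 0.05) and 1 without the filter. Over all sequences edgeR called 0 lower and 1 higher with total counts, and 36 and 34 of 8303 without the filter. Leaving out 1 small RNA library always left 1 library in its group, and that library was assumed to vary like the other group. These omissions moved miR-142-3p between -1.18 and 0.15, miR-155 between -0.81 and 0.12, and miR-342 between -0.80 and 0.039, in each case turning positive without the first library of bulls. DESeq2, limma-voom and upper-quartile scaling called the same number, 2. The cause of these changes was not tested.

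With the replicate number as a block, edgeR called 128 sequences lower and 138 higher instead of 76 and 76, and 3 listed miRNAs instead of 2, miR-150 (-1.14, adjusted p = 0.0128 from edgeR) being added. Same-numbered libraries deviated together with a correlation of 0.30 across 1073 sequences, but the labels do not say that a number marks anything shared. No paired analysis was possible for mRNA because each group had 1 library. The few counts in steers limit the GIMAP intervals.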
